A study of Homo sapiens with 12 samples.

Results

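The interferon-stimulated and MHC class I genes described here are 40 genes, picked by symbol, of the 28256 gene symbols in a count table from HepG2 cells. For each gene the transcript with the highest total count over all 12 libraries was used. All 40 were found, and 34 of them had enough counts to be tested among 13166 genes. HepG2 is a widely used human hepatoma cell line, labelled here as wild type. RNA was sequenced in 4 groups of 3 libraries. The DexKLA cells received 50 nM Dex (dexamethasone, a synthetic glucocorticoid) together with KLA at a labelled dose of 100 ng/µl, the KLA cells received KLA alone, the Dex cells received Dex alone, and the DMSO cells received 0.1% DMSO as the vehicle. Treatments lasted 24 h, and cells of every group had first spent 24 h in charcoal-stripped serum. The labels do not spell out KLA, leave it unstated if DMSO was also given with the agents, and do not say whether the 3 libraries of a group came from separate cultures. The p-values therefore measure library-to-library spread only, part or all of which may be technical.

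Total counts over genes ran from 4514606 to 11484497 in DexKLA libraries, 15998657 to 20933501 in KLA libraries, 3642685 to 17782057 in Dex libraries and 3317740 to 5277463 in DMSO libraries. Every KLA library was deeper than every DMSO library and every DexKLA library. Depth and treatment therefore cannot be told apart in KLA versus DMSO or in DexKLA versus KLA. KLA replicate 3 and DexKLA replicate 3 stood apart from their groups, their counts giving chi-square values, divided by the degrees of freedom, of 21.9 and 22.7 against the other KLA libraries and 18.1 and 9.99 against the other DexKLA libraries, where the other pairs of replicates had 1.87 to 5.77. All 10 hepatocyte markers checked were expressed, ALB among them at 56990 to 101089 CPM (counts scaled to library size, with TMM normalisation). Of 12 immune and stromal markers, 4 had enough counts to be tested. The other 8 had few counts: CD3E was at 0 in every library, PTPRC (CD45) at 0 to 1 counts and VWF, the most abundant of the 8, at 1 to 24. On plain library totals, the summed level of these 12 markers was 3991 to 4258 CPM in DexKLA libraries, 4357 to 4703 CPM in KLA libraries, 4013 to 4221 CPM in Dex libraries and 4019 to 4574 CPM in DMSO libraries. Nearly all of it came from LYZ, which averaged 4234 CPM over the 12 libraries. In bulk RNA, fewer cells that express a gene and less of its RNA per cell cannot be told apart.

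Interferons are secreted by cells that sense viral or bacterial products. At the cell surface, type I interferons activate the kinases JAK1 and TYK2, and a complex that includes the transcription factors STAT2 and IRF9 then binds the interferon-stimulated response element (ISRE) in the promoters of responding genes. The products include sensors of foreign RNA, enzymes and membrane proteins that block viral replication, and the MHC class I machinery that displays peptides to T cells. Hepatocytes respond to interferons, and glucocorticoids such as dexamethasone act through the glucocorticoid receptor, which binds its own response elements and dampens many inflammatory genes.

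RefSeq promoter sequences (GRCh38.p14, 250 bases before to 50 bases after the start site) were matched for 32 of the 40 genes. An ISRE, searched on both strands as GAAA followed after any 2 bases by GAAA, was present in 21 of these 32 genes (65.6%), against 4.38% of all 27305 genes and 3.57% of all 35116 promoters in the table. The interferon gamma-activated site (GAS), spelled TTCNNNGAA, was present in 10 of 32 (31.2%), against 9.38% of all genes. A kappaB site, searched as GGGNN followed directly by TTNCC, was present in 6 of 32 (18.8%), against 6.85%. A glucocorticoid response element, searched as GNACA followed after any 3 bases by TGTNC, was found in 0 of 32 of these windows and in 0.48% of all genes. These matches are letters in a window, and none was tested as a binding site. Matches of different motifs may overlap. The 200 bases before the start site are shown for 4 genes that stand for the results below, with ISRE matches in capitals. IFIT1 and ISG15 are textbook interferon targets, B2M was called higher in KLA than in DMSO, and SAMHD1 was called lower there and has no ISRE match in its window. The start site of each printed promoter is the start of the transcript that was counted.
IFIT1, chr10:89392423-89392622, plus strand: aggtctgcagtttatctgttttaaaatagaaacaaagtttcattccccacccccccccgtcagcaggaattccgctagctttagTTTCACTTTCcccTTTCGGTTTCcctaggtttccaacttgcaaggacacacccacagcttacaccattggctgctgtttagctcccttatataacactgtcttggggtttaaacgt
ISG15, chr1:1013297-1013496, plus strand: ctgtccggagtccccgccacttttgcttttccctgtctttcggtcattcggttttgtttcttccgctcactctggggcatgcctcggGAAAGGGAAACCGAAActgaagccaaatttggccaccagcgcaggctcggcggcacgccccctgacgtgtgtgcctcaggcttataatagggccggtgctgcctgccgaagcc
B2M, chr15:44711317-44711516, plus strand: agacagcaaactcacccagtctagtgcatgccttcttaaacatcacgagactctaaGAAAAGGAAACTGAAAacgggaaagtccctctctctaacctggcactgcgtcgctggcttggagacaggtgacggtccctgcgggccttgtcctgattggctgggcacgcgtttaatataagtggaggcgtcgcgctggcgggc
SAMHD1, chr20:36951709-36951908, minus strand: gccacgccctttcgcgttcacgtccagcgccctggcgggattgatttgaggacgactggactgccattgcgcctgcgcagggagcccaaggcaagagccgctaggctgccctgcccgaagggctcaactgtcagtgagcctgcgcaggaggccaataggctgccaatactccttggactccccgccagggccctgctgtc
The ISRE matches began 116 bases before the start site in IFIT1, 113 in ISG15 and 144 in B2M, each of these promoters holding 2 matches. The B2M window also held a kappaB match.

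HepG2 cells expressed the class I genes far above most of the antiviral genes. Per kilobase of transcript, on plain library totals over all 12 libraries, B2M, the invariant light chain of MHC class I, stood highest at 468 CPM. It was followed by the class I heavy chain HLA-C at 186, the endosomal restriction factor IFITM3 at 119, the heavy chain HLA-B at 97.4 and the virion tether BST2 at 59.0 CPM per kilobase. The ubiquitin-like modifier ISG15 stood at 26.1 and TAP1, a subunit of the transporter that loads peptides onto class I, at 18.6. Several of the usual induced genes were at the bottom of the order. The viral RNA-binding protein IFIT1 stood at 1.43, the GTPase MX1 at 0.519 and XAF1, a partner of the apoptosis inhibitor XIAP, at 0.514 CPM per kilobase.

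The 6 genes that could not be tested had few counts in every group. IFI27 had 1 to 14 counts per library, IFIT2 1 to 11, OASL 0 to 8, OAS2 0 to 4, IRF7 0 to 4 and IFI44 0 to 1. In IFI44 the only count fell in KLA replicate 1. A count of 0 allows a level of up to 3 counts, which is 0.143 CPM in the deepest library and 0.904 CPM in the shallowest, and such limits cover counting error only. Of 8 interferon genes looked at, 7 (among them IFNA1, IFNB1 and IFNG) had 0 counts in all 12 libraries, which allows up to 0.0250 CPM over the pooled libraries. The eighth, IFNL1, had 3 counts, all in KLA replicate 1.

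**Figure D1:**
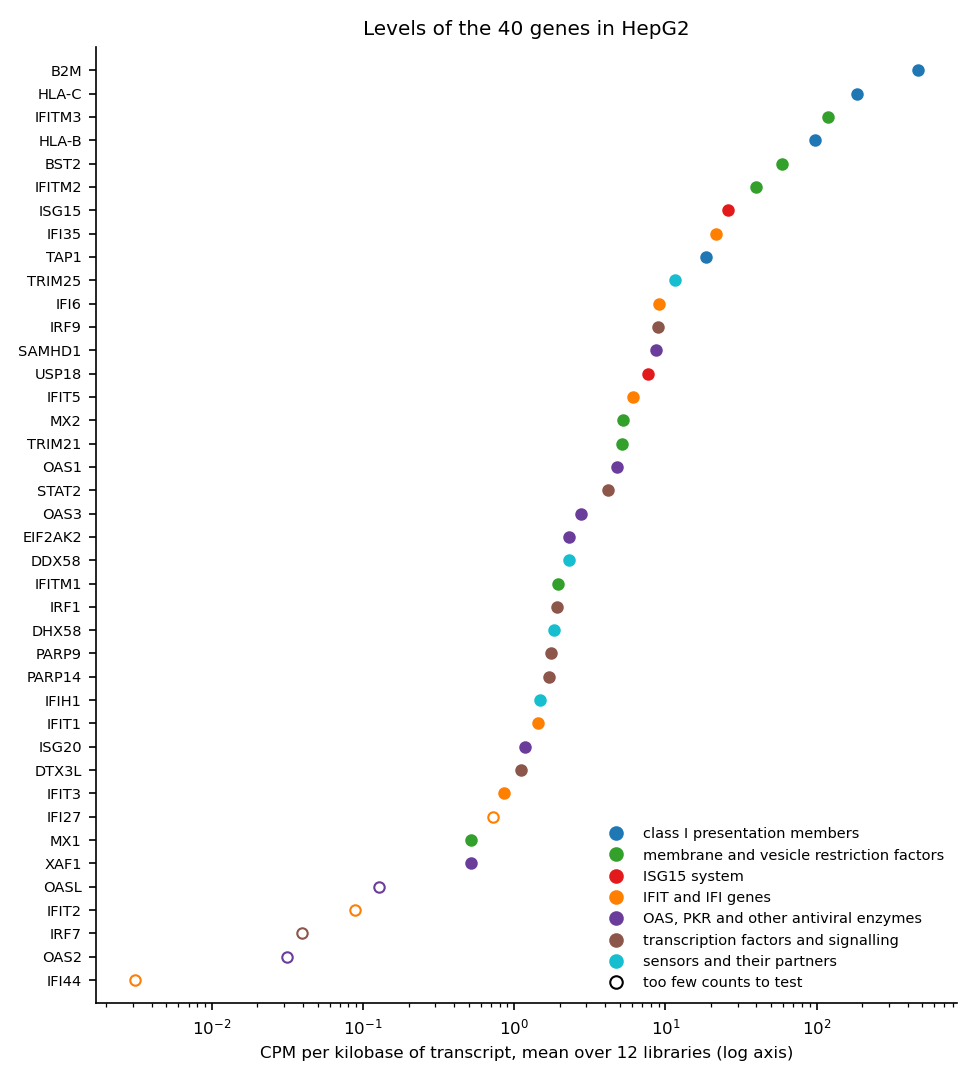
Level of each of the 40 genes in CPM per kilobase of transcript on a log axis, averaged over the 12 libraries; colours mark the role of the gene and open circles the 6 genes with too few counts to test. B2M at 468 and HLA-C at 186 lead the order, and IFI44 ends it.

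Reads of some of these genes cannot be assigned with certainty. The class I heavy chains and the IFITM genes have near-identical relatives. The transcripts of HLA-B, HLA-C and TAP1 had deposited copy values of 6, 7 and 8. What these copies are was not checked here. No source used here gives the strandedness of the libraries, so reads of overlapping genes cannot be separated by strand. PARP9 and DTX3L, whose products work as a complex, overlap by 446 bases at their starts on chromosome 3. IFITM1 shares 351 exon bases with IFITM2, and XAF1 shares 2533 with PRAL.

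In KLA versus DMSO, 5 of the 34 tested genes were called, in both directions. B2M and IFI6 were higher in the KLA libraries, and SAMHD1, TRIM25 and MX2 were lower, each by less than 2-fold. These 5 calls are 14.7% of the genes tested, beside 13.7% of all 13166 genes (7.78% higher and 5.94% lower), so the share was near the background. The median log2 change of the 34 genes was −0.017, beside −0.018 over all genes tested, with 16 genes above 0, 18 below and a range of −0.93 (MX1) to 0.57 (IFI6). The largest upper 95% bound on any of the 34 changes was a log2 value of 1.00, for the Fc receptor and ubiquitin ligase TRIM21. Calls are at an adjusted p under 0.05 in the quasi-likelihood test of edgeR, adjusted by Benjamini-Hochberg for all genes tested. With library size alone as the scaling, 1 of these genes was called higher and 3 lower, and over all genes 534 were called higher and 1719 lower, against 1024 and 782 with TMM.

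B2M is needed for class I to reach the cell surface (chr15:44711517-44718877, plus strand). It stood at 885, 915 and 663 CPM in DexKLA libraries, 850, 868 and 978 CPM in KLA libraries, 769, 829 and 828 CPM in Dex libraries, and 570, 632 and 648 CPM in DMSO libraries. Every treated library lay above every DMSO library. In KLA versus DMSO the log2 change was 0.54 ± 0.12 (SE; adjusted p = 0.0109, edgeR quasi-likelihood), a 1.46-fold difference with a 95% interval of 1.23 to 1.73. Dex replicates 1 and 3 had total counts within the range of the DMSO libraries, and Dex replicate 2 was deeper. The cause of the B2M differences was not tested. B2M was not called in Dex versus DMSO (adjusted p = 0.0738, edgeR). In KLA versus DMSO, depth and treatment cannot be told apart.

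HLA-C, HLA-B and TAP1 were not called. HLA-C stood at 275, 296 and 264 CPM in DexKLA libraries, 290, 293 and 277 CPM in KLA libraries, 288, 337 and 279 CPM in Dex libraries, and 329, 283 and 285 CPM in DMSO libraries. The KLA and DMSO libraries overlapped, and the log2 change was −0.059, with a 95% interval of −0.27 to 0.16. HLA-B and TAP1 changed by log2 0.12 (−0.11 to 0.34) and 0.079 (−0.18 to 0.34) in KLA versus DMSO.

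IFI6, an interferon-induced membrane protein of the endoplasmic reticulum and mitochondria, was higher in KLA than in DMSO (chr1:27666064-27672192, minus strand). It stood at 7.99, 7.43 and 6.48 CPM in DexKLA libraries, 7.82, 9.28 and 9.94 CPM in KLA libraries, 8.32, 8.20 and 7.48 CPM in Dex libraries, and 6.76, 6.10 and 5.46 CPM in DMSO libraries. The KLA libraries lay above the DMSO libraries, with the lowest KLA library close to the highest DMSO library. The log2 change was 0.57 ± 0.19 (adjusted p = 0.0459, edgeR), and the call held under only 6 of 21 alternative settings. It was lost when any DMSO or any Dex library, KLA replicate 2 or 3, or DexKLA replicate 2 was left out, with log2 changes of 0.50 to 0.64. IFI35, an interferon-induced protein with the highest level of the remaining IFIT and IFI genes, stood at 24.4, 25.8 and 20.6 CPM in DexKLA libraries, 27.1, 27.7 and 29.6 CPM in KLA libraries, 26.6, 27.9 and 22.0 CPM in Dex libraries, and 22.2, 21.0 and 27.9 CPM in DMSO libraries. The KLA and DMSO ranges overlapped. IFIT1 had a log2 change of −0.12 in KLA versus DMSO (95% interval −0.57 to 0.32), and IFIT3 and IFIT5, its neighbours on chromosome 10, had values of 0.018 and 0.12.

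SAMHD1, which hydrolyses the deoxynucleotides that viruses need to copy DNA, was lower in KLA than in DMSO (chr20:36889775-36951708, minus strand). It stood at 49.3, 47.4 and 51.5 CPM in DexKLA libraries, 25.9, 32.8 and 29.1 CPM in KLA libraries, 51.6, 51.7 and 47.5 CPM in Dex libraries, and 49.6, 38.6 and 42.8 CPM in DMSO libraries. The 3 KLA libraries were the lowest of all 12, with no overlap with any other group. The log2 change in KLA versus DMSO was −0.57 ± 0.12 (adjusted p = 0.0105, edgeR), with a 95% interval of −0.82 to −0.31. The other antiviral enzymes that were tested were not called. OAS1, which makes the second messenger of RNase L, stood at 7.99, 6.04 and 8.64 CPM in DexKLA libraries, 9.17, 7.68 and 7.87 CPM in KLA libraries, 8.04, 7.74 and 6.16 CPM in Dex libraries, and 9.01, 7.18 and 7.86 CPM in DMSO libraries. All 4 groups overlapped. OAS3, EIF2AK2 (the kinase PKR) and the exonuclease ISG20 had log2 changes of −0.46, −0.26 and −0.24 in KLA versus DMSO.

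TRIM25, a ubiquitin ligase that acts on the RNA sensor RIG-I, was also lower in KLA (chr17:56887909-56914049, minus strand). It stood at 64.1, 56.2 and 72.6 CPM in DexKLA libraries, 55.9, 64.3 and 47.2 CPM in KLA libraries, 68.7, 53.9 and 66.9 CPM in Dex libraries, and 94.0, 69.6 and 80.3 CPM in DMSO libraries. The KLA libraries lay below the DMSO libraries, and the log2 change was −0.54 ± 0.14 (adjusted p = 0.0177, edgeR). DDX58, which encodes RIG-I itself, stood at 10.7, 12.1 and 11.5 CPM in DexKLA libraries, 12.1, 10.3 and 10.6 CPM in KLA libraries, 8.32, 10.1 and 8.36 CPM in Dex libraries, and 9.01, 10.8 and 12.7 CPM in DMSO libraries. The KLA and DMSO libraries overlapped, and the log2 change of 0.014 had a 95% interval of −0.33 to 0.36. The related sensors IFIH1 (MDA5) and DHX58 (LGP2) had log2 changes of −0.33 and 0.054.

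MX2, a dynamin-like GTPase that blocks nuclear entry of some viruses, was the third gene called lower in KLA (chr21:41362027-41409392, plus strand). It stood at 16.7, 17.6 and 17.5 CPM in DexKLA libraries, 15.8, 16.5 and 16.3 CPM in KLA libraries, 11.6, 17.7 and 16.3 CPM in Dex libraries, and 21.1, 21.5 and 24.4 CPM in DMSO libraries. The DMSO libraries were the highest of all 12. The log2 change in KLA versus DMSO was −0.46 ± 0.14 (adjusted p = 0.0354, edgeR), and the call was lost when any DMSO or any KLA library was left out, with log2 changes of −0.50 to −0.40. Its neighbour MX1, at 36 counts or fewer per library, had a log2 change of −0.93 with a 95% interval of −1.66 to −0.19 (adjusted p = 0.0807, edgeR). IFITM3 stood at 64.6, 60.4 and 59.5 CPM in DexKLA libraries, 77.3, 76.4 and 82.4 CPM in KLA libraries, 67.9, 80.4 and 71.7 CPM in Dex libraries, and 85.6, 70.0 and 69.8 CPM in DMSO libraries. The KLA and DMSO libraries overlapped, and the log2 change was 0.072.

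ISG15 and IRF9 came close to the threshold. ISG15, which is conjugated to other proteins like ubiquitin, stood at 13.9, 14.4 and 15.7 CPM in DexKLA libraries, 18.3, 18.4 and 22.6 CPM in KLA libraries, 16.1, 18.6 and 16.7 CPM in Dex libraries, and 16.9, 15.4 and 11.4 CPM in DMSO libraries. Its KLA libraries lay above the DMSO libraries, with a log2 change of 0.45 ± 0.16 (adjusted p = 0.0581, edgeR). USP18, which removes ISG15 from proteins and dampens interferon receptor signalling, had a log2 change of −0.031. IRF9, the DNA-binding subunit of the STAT complex, stood at 15.3, 16 and 11.5 CPM in DexKLA libraries, 21.0, 16 and 16.3 CPM in KLA libraries, 12.8, 13.6 and 13.6 CPM in Dex libraries, and 12.4, 12.6 and 13.5 CPM in DMSO libraries. Its KLA libraries also lay above the DMSO libraries, with a log2 change of 0.47 ± 0.16 (adjusted p = 0.0597, edgeR). STAT2 and IRF1 had log2 changes of −0.093 and −0.15.

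**Figure D2:**
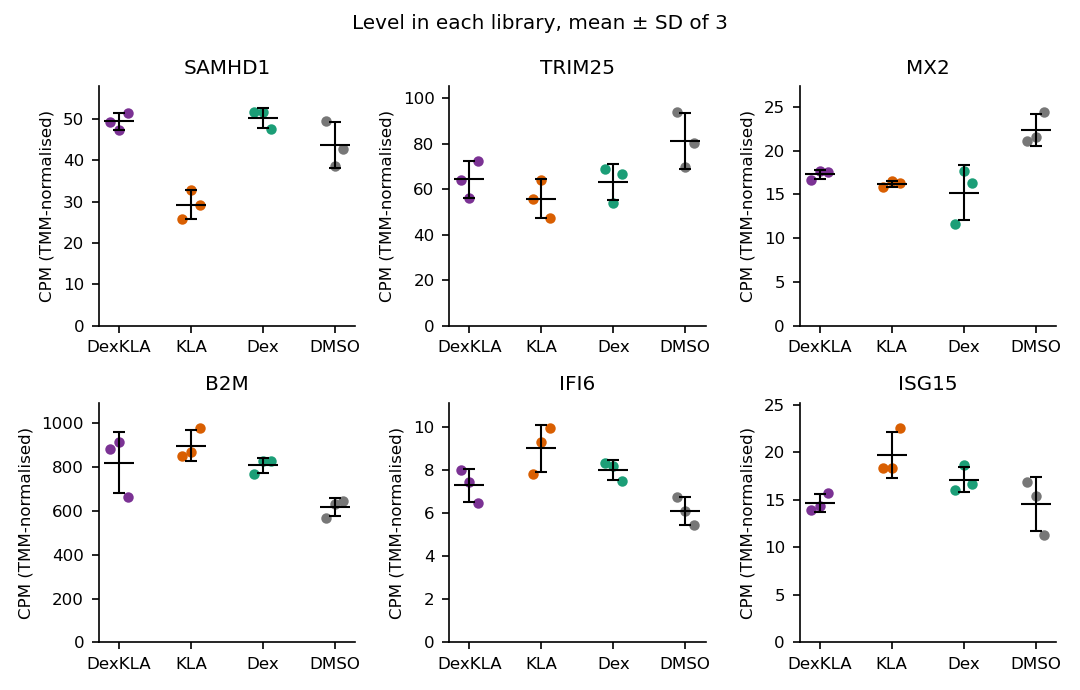
Level of 6 genes in every library (TMM-normalised CPM), with the mean and SD of the 3 libraries of each group, in the order DexKLA, KLA, Dex and DMSO. SAMHD1 is lowest in the 3 KLA libraries (25.9 to 32.8 CPM), and B2M is lowest in the 3 DMSO libraries (570 to 648 CPM).

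In all, 12 of the 34 genes had KLA libraries that did not overlap the DMSO libraries, beside 36.2% of all genes tested. In this comparison, with DMSO replicate 1 left out, 0 of these genes were called, with 5 calls among all genes. SAMHD1, TRIM25 and B2M then had log2 changes of −0.47, −0.42 and 0.49. With the depth class of the library as a covariate the count was also 0, with 4 calls among all genes, and SAMHD1, TRIM25 and B2M had log2 changes of −0.64, −0.50 and 0.64. The count was 3 without DMSO replicate 2 (897 of all genes) or 3 (895), 2 without KLA replicate 3 (591) and 8 without DexKLA replicate 3 (2363), against 1806 of all genes with every library. TRIM25 was also lost without KLA replicate 3, at −0.43.

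DESeq2 called SAMHD1 and PARP14 in DexKLA versus KLA, and edgeR called SAMHD1 alone of the 34 genes, as higher in DexKLA. The 3 DexKLA libraries, at 47.4 to 51.5 CPM, lay above the 3 KLA libraries, at 25.9 to 32.8 CPM, and overlapped the DMSO libraries, at 38.6 to 49.6 CPM. The log2 change in DexKLA versus KLA was 0.76 ± 0.12 (adjusted p = 0.000881, edgeR), a 1.69-fold difference with a 95% interval of 1.43 to 2.00. This 1 call of 34 stands beside 0.653% of all genes called (0.441% higher and 0.213% lower), and it held under all 21 alternative settings, with log2 changes of 0.67 to 0.85. Every KLA library was also deeper than every DexKLA library, so depth and treatment cannot be told apart here either. This comparison and KLA versus DMSO share the KLA libraries, so the values are given side by side and are not independent of each other. Without DMSO replicate 3, DexKLA versus KLA had 2 calls among these genes and 80 among all genes.

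All 3 listed transcripts of SAMHD1 gave similar ratios, but they cover nearly the same stretch of the same strand, so their counts are not independent. On plain library totals, the mean in DexKLA libraries was 1.70 to 1.80 times that in KLA libraries, and the mean in KLA libraries was 0.605 to 0.639 times that in DMSO libraries. TLDC2, on the opposite strand, shares 1157 exon bases with SAMHD1 at its end, and had 717 counts in all against 4751 for SAMHD1. TLDC2 had a log2 change of 0.57 in DexKLA versus KLA (adjusted p = 0.320, edgeR) and −0.0065 in KLA versus DMSO.

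PARP14, an ADP-ribosyltransferase of the interferon response, was picked out after its values were seen (chr3:122680839-122730840, plus strand). It stood at 15.2, 16.2 and 15.6 CPM in DexKLA libraries, 9.61, 10.5 and 8.65 CPM in KLA libraries, 15.0, 14.7 and 14.5 CPM in Dex libraries, and 9.57, 8.97 and 17.5 CPM in DMSO libraries. The DexKLA libraries lay above the KLA libraries, and DMSO replicate 3 stood apart from the other DMSO libraries. Its log2 change in DexKLA versus KLA was 0.70 ± 0.17 (adjusted p = 0.0738, edgeR), and it was called under 3 of 21 alternatives, namely with DESeq2, with no filter and without DMSO replicate 3. PARP9 and DTX3L, near it on chromosome 3, had log2 values of 0.39 and 0.45 and were not called.

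Other genes had values on both sides of 0 when Dex was added to KLA. In 10 of the 34 genes the DexKLA and KLA libraries did not overlap, beside 15.3% of all genes tested. DexKLA libraries lay lower in IFITM2, IFITM3, BST2, ISG15, IFI35 and IRF9, and higher in SAMHD1, PARP14, MX1 and MX2. IFITM3 had a log2 change of −0.36 ± 0.11 (adjusted p = 0.193, edgeR) and ISG15 one of −0.42 ± 0.15 (adjusted p = 0.301, edgeR). The median of the 34 changes was −0.036, beside 0.0032 over all genes, and the range was −0.42 (ISG15) to 0.76 (SAMHD1).

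**Figure D3:**
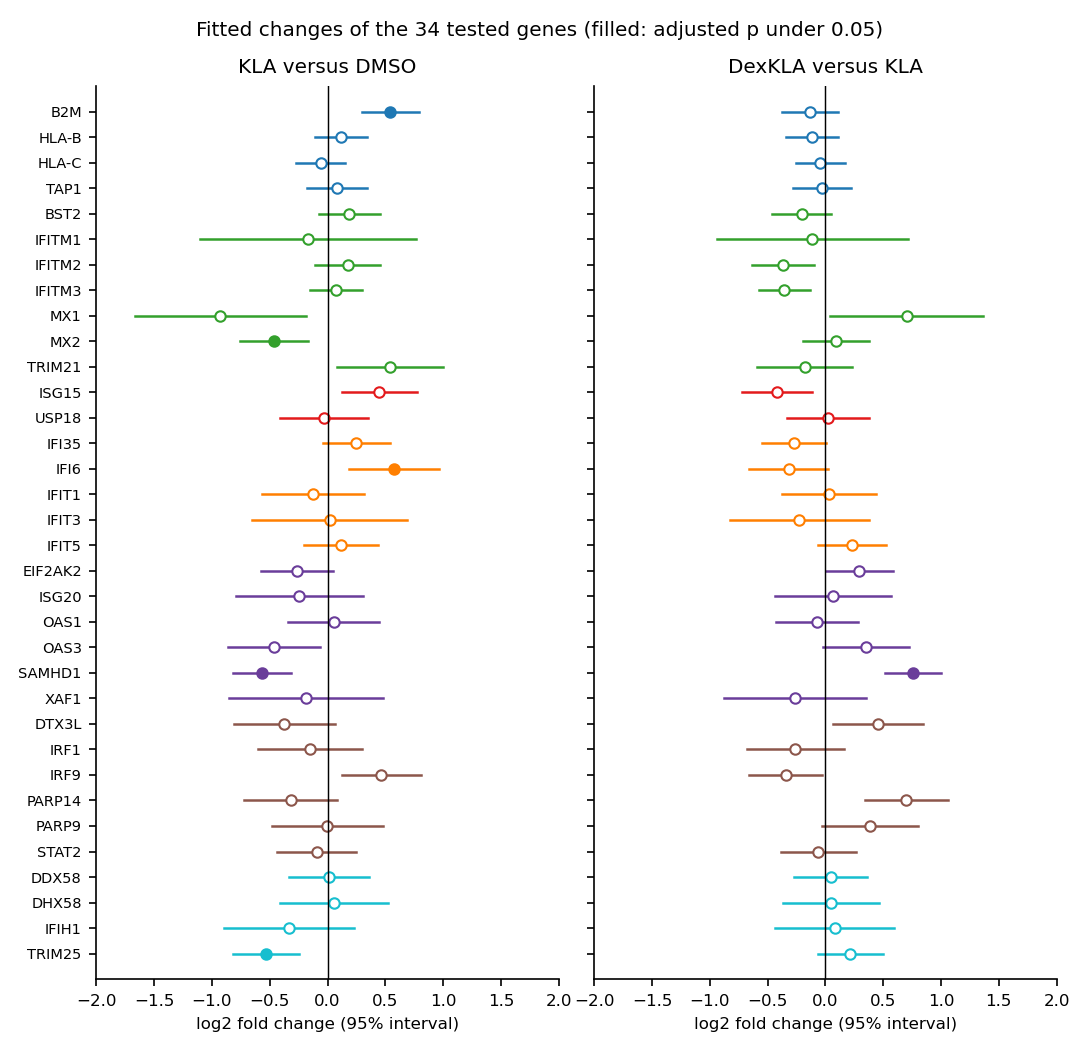
Fitted log2 fold change of the 34 tested genes with 95% intervals, for KLA versus DMSO (left) and DexKLA versus KLA (right), grouped by role and coloured as in the plot of levels; filled points have an adjusted p under 0.05. Of the filled points, 5 are in KLA versus DMSO and 1, SAMHD1, is in DexKLA versus KLA.

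Dex alone called none of these genes. In Dex versus DMSO, 0 of 34 passed in edgeR's quasi-likelihood test, beside 2.05% of all genes (1.22% higher and 0.835% lower). An unadjusted p under 0.05 was found for 4 of the 34 and 2683 of all 13166 genes, and the DESeq2 Wald test called 1 of the 34, B2M, and 656 of all genes. The 2 with the smallest p-values were B2M (log2 0.39 ± 0.12) and MX2 (log2 −0.51 ± 0.15), each with an adjusted p of 0.0738 in edgeR. SAMHD1 had a log2 change of 0.22 ± 0.12 (adjusted p = 0.330, edgeR), and its Dex and DMSO libraries overlapped. The groups did not overlap in 9 of 34 genes, beside 28% of all genes tested. The 34 log2 changes ran from −0.68 to 0.40, with a median of 0.026 beside −0.011 over all genes. The count was 2 without KLA replicate 3 (915 of all genes) and 1 without DexKLA replicate 3 (728), against 270 of all genes with every library. These libraries enter the fit through the shared spread and scaling.

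The mean Dex effect, over cells with and without KLA, was called for SAMHD1 (log2 0.49 ± 0.085, adjusted p = 0.00177, edgeR), 1 of 34 beside 1.51% of all genes (0.873% higher and 0.638% lower). The call held under all 21 alternative settings. This effect averages the SAMHD1 changes in Dex versus DMSO (log2 0.22, not called) and in DexKLA versus KLA (log2 0.76), so it is not independent of them. PARP14 had a mean Dex effect of 0.50 ± 0.13 (adjusted p = 0.0672, edgeR), and it was called under 4 of 21 alternatives, namely with DESeq2, with no filter, with the length trend removed and without DMSO replicate 3, where the count was 2 (148 of all genes).

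With DexKLA against DMSO, 0 of 34 genes were called by edgeR, beside 4.22% of all genes (2.84% higher and 1.38% lower). An unadjusted p under 0.05 was found for 5 of the 34 and 2822 of all 13166 genes, and DESeq2 called 1 of the 34, B2M, and 927 of all genes. B2M missed the threshold narrowly, at a log2 change of 0.41 ± 0.12 (adjusted p = 0.0503, edgeR). The groups did not overlap in 5 of 34 genes, beside 26.2% of all genes tested, and the median change was −0.020, beside −0.017 over all genes. The count was 1 without DMSO replicate 3 (247 of all genes) or KLA replicate 3 (1079) and 2 without DexKLA replicate 3 (1461), against 556 of all genes with every library.

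KLA added to Dex called none of these genes and none of all genes. In DexKLA versus Dex, edgeR called 0 of 34, beside 0% of all genes, with 1 gene (IFITM3, log2 −0.26 ± 0.11) at an unadjusted p under 0.05, and DESeq2 called 0. Among all genes 935 had an unadjusted p under 0.05. The groups did not overlap in 7 of 34 genes, beside 12.7% of all genes tested. The mean KLA effect, over cells with and without Dex, was called for 0 of 34 genes, beside 0% of all genes. An unadjusted p under 0.05 was found for 4 of the 34 (SAMHD1, TRIM25, B2M and IRF9) and 2532 of all genes, and DESeq2 called 2 of the 34, SAMHD1 and B2M, and 547 of all genes. Without DexKLA replicate 3 edgeR called 2 of the 34 and 987 of all genes.

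The interaction of Dex and KLA asks whether the Dex effect differed between cells with and without KLA. It was called for 0 of 34 genes in edgeR, beside 0.038% of all genes (0.0304% higher and 0.0076% lower), and for 1, B2M, in DESeq2, which called 664 of all genes. SAMHD1 had an interaction of 0.54 ± 0.17 on the log2 scale (adjusted p = 0.0803, edgeR) and B2M one of −0.52 ± 0.17 (adjusted p = 0.0829, edgeR). An unadjusted p under 0.05 was found for 11 of the 34 and 2922 of all 13166 genes. The interaction was positive in EIF2AK2, OAS3, SAMHD1, MX1, MX2 and TRIM25, and negative in IFI6, ISG15, B2M, BST2 and IFITM3. The first 6 have transcripts of 3391 to 9956 bases, the other 5 transcripts of 607 to 1669 bases. Without DexKLA replicate 1, 1 of the 34 and 681 of all genes were called.

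Changes sloped with transcript length in these genes and over all genes, to an extent that differed between comparisons. In KLA versus DMSO, Spearman's rho between transcript length and log2 change was −0.69 over the 34 genes and −0.47 over all 13166, a description across genes that share the same libraries. Of the 17 genes with shorter transcripts, 14 had a positive change (median 0.12), and of the 17 with longer transcripts, 2 did (median −0.26). In DexKLA versus KLA, which shares the KLA libraries, rho was 0.77 over the 34 genes and 0.49 over all genes. There 2 of the 17 shorter and 14 of the 17 longer transcripts had a positive change. In Dex versus DMSO, rho was −0.26 over the 34 genes and −0.45 over all genes, and in DexKLA versus DMSO it was 0.070 and −0.18. In DexKLA versus Dex it was 0.49 and 0.39, and for the interaction 0.70 and 0.58. The called genes had the sign of the slope at their length. IFI6 at 829 bases and B2M at 1669 were higher in KLA than in DMSO, and MX2 at 3391, SAMHD1 at 4981 and TRIM25 at 5734 were lower. These called genes lay outside the interquartile band of all genes. They were picked by calls on these same changes, so no conclusion is drawn from that. With each library's smooth trend on length removed, B2M and SAMHD1 were still called in KLA versus DMSO, and the other 3 were not, with log2 changes of 0.27 for IFI6, −0.43 for MX2 and −0.37 for TRIM25. SAMHD1 in DexKLA versus KLA was still called.

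**Figure D4:**
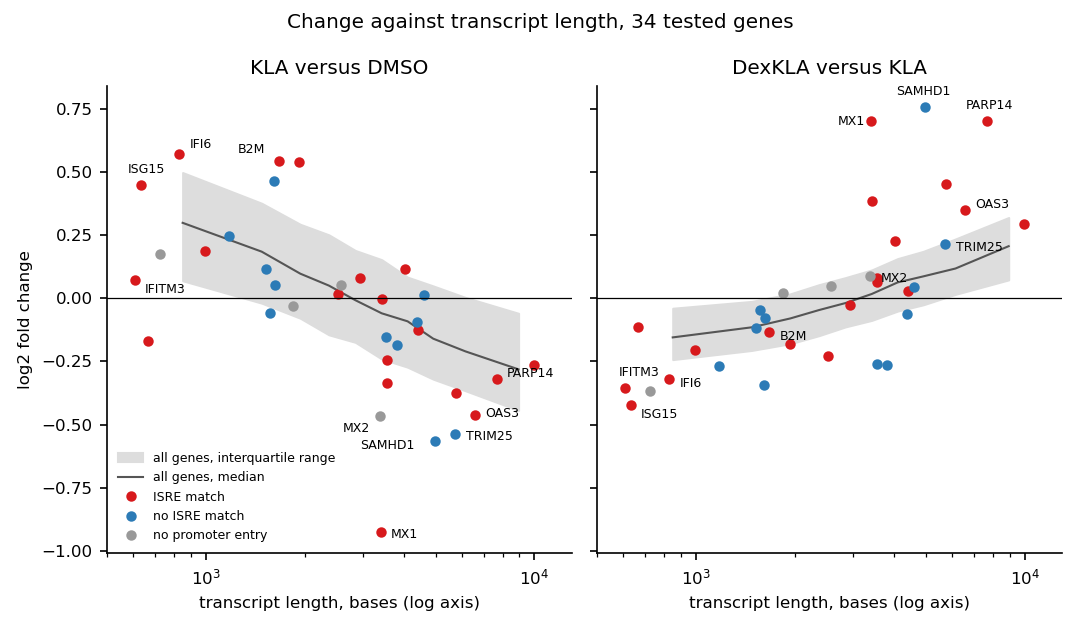
Log2 fold change against transcript length (log axis) for the 34 tested genes, in KLA versus DMSO (left) and DexKLA versus KLA (right); the line is the median of all genes in bins of length, the band their interquartile range, and colours mark whether the promoter holds an ISRE match. The changes slope down with length in KLA versus DMSO (rho −0.69) and up in DexKLA versus KLA (rho 0.77), and genes with and without an ISRE match lie on both sides of 0.

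Genes with and without an ISRE match lay on both sides of 0. In KLA versus DMSO, 9 of 19 tested genes with a match had a positive change (median −0.0031), and 5 of 11 without a match did (median −0.059). Both genes called higher, B2M and IFI6, have a match. SAMHD1 and TRIM25, called lower, have none, and MX2 has no promoter entry. These genes were picked by calls on these same changes and also differ in transcript length, so no conclusion is drawn from their matches. In Dex versus DMSO, 11 of 19 genes with a match and 5 of 11 without had a positive change, with medians of 0.12 and −0.019.

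Genes that carry interferon signals were examined next. Of 14 interferon and receptor genes, 6 were tested, and 1 was called, beside 4.22% of all genes in DexKLA versus DMSO. It was the interferon gamma receptor subunit IFNGR1, higher in DexKLA (93.3 ± 7.88 CPM) than in DMSO (69.1 ± 9.27 CPM; SD, n = 3 each), at a log2 change of 0.42 ± 0.11 (adjusted p = 0.0409, edgeR). This call was lost when any DMSO library, DexKLA replicate 1 or 2, or Dex replicate 3 was left out, with log2 changes no lower than 0.32 under any alternative. Of 13 signalling and feedback genes, 11 were tested and 1 was called in KLA versus DMSO, beside 13.7% of all genes. The receptor kinase JAK1 was lower in KLA (28.1 ± 2.90 CPM) than in DMSO (38.1 ± 3.11 CPM), at −0.44 ± 0.12 (adjusted p = 0.0225, edgeR). IRF3, the factor that turns on interferon genes after sensing, had a log2 change of 0.29 ± 0.13 in KLA versus DMSO (adjusted p = 0.123, edgeR). SOCS3, a feedback inhibitor of the receptor kinases, was not tested. It had 1, 1 and 1 counts in DexKLA libraries, 17, 10 and 13 in the deeper KLA libraries, 1, 3 and 4 in Dex libraries and 2, 3 and 2 in DMSO libraries.

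Nucleic acid sensing genes were called in both directions. The list held 16 symbols. STING1 and TMEM173 name the same gene, as do CGAS and MB21D1, and LGP2 is DHX58, described above. Of the symbols, 8 were tested, with 2 called in KLA versus DMSO, beside 13.7% of all genes, and 1 in DexKLA versus DMSO, beside 4.22%. TBK1, the kinase that activates IRF3, stood at 55.2 ± 2.82 CPM in KLA, against 38.7 ± 4.83 CPM in DMSO (log2 0.50 ± 0.12, adjusted p = 0.0136, edgeR). It was also called in DexKLA at 58.1 ± 6.61 CPM (0.57 ± 0.12, adjusted p = 0.0156, edgeR). TRAF3, the ubiquitin ligase upstream of TBK1, stood at 14.1 ± 0.905 CPM in KLA, against 21.2 ± 2.59 CPM in DMSO (−0.58 ± 0.15, adjusted p = 0.0195, edgeR).

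All 18 other class I presentation genes in the list were tested, with 1 called in KLA versus DMSO (13.7% of all genes) and 1 in DexKLA versus DMSO (4.22%). ERAP1, which trims peptides in the endoplasmic reticulum, stood at 24.4 ± 3.64 CPM in KLA, against 37.7 ± 4.06 CPM in DMSO (log2 −0.62 ± 0.14, adjusted p = 0.0109, edgeR). CALR, the chaperone calreticulin of the peptide-loading complex, stood at 582 ± 63.4 CPM in DexKLA, against 809 ± 59.3 CPM in DMSO (−0.47 ± 0.11, adjusted p = 0.0240, edgeR). The 49 symbols of further interferon-stimulated genes held both WARS and its other name WARS1. Of these symbols, 32 were tested, and 23 had a negative change in KLA versus DMSO. Of the 32 tested, 2 (6.25%) were called, both lower in KLA than in DMSO, beside 13.7% of all genes. They were the RNA-editing enzyme ADAR (69.6 ± 9.49 CPM in KLA against 99.6 ± 10.3 CPM in DMSO; −0.51 ± 0.13, adjusted p = 0.0164, edgeR) and the tryptophanyl-tRNA synthetase WARS (27.6 ± 3.79 CPM in KLA against 38.0 ± 6.82 CPM in DMSO; −0.45 ± 0.14, adjusted p = 0.0398, edgeR).

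In KLA versus DMSO, the median log2 changes were −0.10 for interferon and receptor genes, −0.19 for signalling and feedback genes, −0.25 for sensing genes, −0.051 for class I presentation genes and −0.13 for the further interferon-stimulated genes, beside −0.018 over all genes tested. Without DMSO replicate 1, all of the calls named in these 5 lists were lost, at log2 changes of −0.50 for JAK1, 0.41 for TBK1, −0.48 for TRAF3, −0.54 for ERAP1, −0.45 for ADAR and −0.30 for WARS in KLA versus DMSO. In DexKLA versus DMSO they were 0.32 for IFNGR1, 0.48 for TBK1 and −0.41 for CALR. The depth class covariate also ended these calls, except that of TBK1 in DexKLA versus DMSO, and removing the length trend ended those of JAK1, TRAF3 and ADAR, at −0.30, −0.35 and −0.32. Without KLA replicate 3, JAK1, TRAF3, ADAR and WARS were lost, at −0.37, −0.53, −0.41 and −0.40. JAK1 and WARS were also lost without DMSO replicate 2 (−0.42 and −0.52) or 3 (−0.40 and −0.51), and WARS without KLA replicate 1 (−0.38) or Dex replicate 3 (−0.45). In DexKLA versus DMSO, TBK1 and CALR were lost without DexKLA replicate 1 (0.56 and −0.52) or 2 (0.50 and −0.52), and CALR without DMSO replicate 3 (−0.49).

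Across the 12 libraries, pairs of the 34 genes were about as often negatively as positively correlated. Over all 561 pairs, the median Pearson correlation of log2 CPM was −0.011, with 273 pairs above 0. The extremes were −0.88 for TRIM25 with B2M and 0.84 for TRIM25 with OAS3. On plain library totals, the summed level of all 40 genes was 1728 to 1860 CPM in DexKLA libraries, 1827 to 1907 CPM in KLA libraries, 1770 to 1916 CPM in Dex libraries and 1733 to 1787 CPM in DMSO libraries. B2M, HLA-C and HLA-B made up most of it. The 5 other genes most like the mean profile of the 34 over the 12 libraries were ETHE1 (Pearson r 0.80), C19orf48 (0.80), AMN (0.77), CFAP410 (0.75) and SPNS1 (0.74). These correlations are descriptions over libraries that share depth and the trend with length.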

How the data were processed

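Per the submitters' processing notes, the tools were HOMER 4.10, BWA 0.7.17 and Trimmomatic and the build hg38, with no roles given. The deposited values per RefSeq transcript, in steps of 0.5, were read here with the unit expected counts, and the way they were made is not given in the sources used here. They were rounded to whole numbers. Of 70507 transcripts, 406 had no gene symbol, held 1.71% to 2.55% of a library's total and were left out. The transcript with the highest total per symbol was kept.

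Genes were tested with edgeR 4.0.16 (R 4.3.3) after filterByExpr (minimum count 10) and TMM scaling, with a quasi-likelihood fit of 1 mean per group to all 12 libraries, with Benjamini-Hochberg adjustment for 13166 genes in each of 8 comparisons. The fit was also run on simulated counts with known changes. These had the same spread in every gene, no length trend and no outlying library. That run therefore cannot show how the fit handles such features of the data. The alternatives were DESeq2 1.42.0 and its size factors, library size alone, no filter, a minimum of 50 reads in 3 libraries, the length trend removed (loess span 0.3), the longest transcript, a replicate block, a depth class covariate and leaving out each library. CPM used TMM-scaled library sizes, with some exceptions. The levels per kilobase, the summed levels, the limits for counts of 0 and the ratios of SAMHD1 transcripts used plain library totals. Profile likeness used log2(CPM + 0.5).

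The 40 genes, the lists and the tests were chosen with earlier results of these data known. Named are genes called in any comparison, the highest remaining gene per kilobase of each role, up to 3 called genes per pathway list, and IRF3 and SOCS3. Some genes of the rule are not reported here. Per the deposited table, no 2 replicates were copies, the chi-square per degree of freedom between replicates being 1.87 to 22.7. The length column of the deposited table gave transcript lengths in bases.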

Additional observations from a re-analysis of the deposited data

How the results depend on the processing

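Counts of called genes moved with the settings, although no called value changed sign under any of the 21 alternatives. Counts over all genes tested stand in brackets. In Dex versus DMSO, 0 genes were called (270). The count was 1 with library size alone (399), DESeq2 (656) and no filter (909), and 0 to 2 when a library was left out (56 to 915). In KLA versus DMSO, 5 were called (1806). The count was 8 with no filter (2220), 2 with the length trend removed (1054), 0 with the depth covariate (4) and 0 to 8 leaving out libraries (5 to 2363). In DexKLA versus DMSO, 0 were called (556). The count was 1 with DESeq2 size factors (568), the DESeq2 test (927), no filter (987) or 50 reads in 3 libraries (572), 2 with the length trend removed (831), and 0 to 2 leaving out libraries (48 to 1461). In DexKLA versus KLA, 1 was called (86). The count was 2 with DESeq2 (116) and no filter (204), and 1 to 2 leaving out libraries (52 to 94). For the mean Dex effect 1 was called (199). The count was 2 with DESeq2 (240), no filter (312) or the length trend removed (253), and 1 to 2 leaving out libraries (139 to 317). For the mean KLA effect 0 were called (0). The count was 2 with DESeq2 (547), 1 with no filter (663) and 0 to 2 leaving out libraries (0 to 987). For the interaction 0 were called (5). The count was 1 with DESeq2 (664), 3 with no filter (1040) and 0 to 1 leaving out libraries (0 to 681). DexKLA versus Dex had 0 throughout (0 to 12). The causes of these shifts were not tested.

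With library size alone, the median of all genes moved to −0.13 in KLA versus DMSO, and the median of the 34 genes to −0.13. Replicate numbers did not pair the libraries. Of 18 pairs of libraries with the same number, 1 had a correlation of deviations over 0.1 (range −0.31 to 0.17), and 0 libraries correlated best with their own number. With the replicate block 3 genes were called in KLA versus DMSO (1360), where IFI6 and MX2 were no longer called. Of 265 values that were not called, 17 were called under some alternative and 118 changed sign under some. Too few counts were present to test 6 of the 40 genes. KLA and DMSO share no depth class.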
